A study of Homo sapiens with 24 samples.

Results

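The cluster of miR-183, miR-96 and miR-182 was followed through 4 mature miRNAs, hsa-miR-183-5p, hsa-miR-183-3p, hsa-miR-96-5p and hsa-miR-182-5p (without the prefix from here on), which were taken by name from a table of 2656 mature human miRNAs. All 4 were among the 905 miRNAs with enough counts to be tested. Membership follows from the names alone. In the 24 libraries, RELA knockdown in spheroids gave higher levels of all 4 miRNAs. In that comparison 9.39% of all tested miRNAs passed as higher at a threshold given below. Other miRNAs of similar base composition had median log2 fold changes of 0.7 and 0.791 there, against 1.12 to 1.89 for the members. In shNeg cells, growth as spheroids gave lower levels of miR-96-5p, miR-183-3p and, by less, miR-183-5p. Both results use the same spheroid shNeg libraries, among them replicate 1, which stood apart. In the culture comparison 45% of all tested miRNAs passed the threshold given below. There miR-96-5p and miR-183-3p lay near the median of miRNAs of similar base composition. The fall of miR-183-5p did not pass when library totals alone were used for scaling.

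Small RNA was sequenced from OV90, an established human ovarian carcinoma cell line, under adherent or spheroid conditions, with 4 libraries for each of 6 groups. Every group carried an inducible shRNA and received 1 µg/ml doxycycline for 72 h. The shRNA was a negative control (shNeg, labelled wildtype) or silenced RELA (shRELA) or RELB (shRELB), which are subunits of the transcription factor NF-κB. Adherent cells were grown in RPMI 1640 with tetracycline-free fetal calf serum, and spheroids in ultra-low attachment vessels in DMEM-F12 with serum replacement, insulin-transferrin-selenium, albumin, EGF and FGF, so that culture form and medium cannot be told apart. The labels do not say whether replicates were separate cultures, and the p-values then measure only the spread between these libraries, which may be technical. Small RNA libraries do not read the RELA or RELB messages, and the knockdown could not be examined in these counts.

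Library totals ranged from 3797175 to 8283549 counts in the 12 adherent libraries and from 959141 to 3580931 in the 12 spheroid libraries. Of the epithelial markers, miR-200c-3p had at least 2238 counts and miR-141-3p at least 36 in every library, while miR-429 reached only 9. The lowest count of both miR-200a-3p and miR-200b-3p was 1. Mean levels were 5450 CPM for miR-200c-3p, 123 for miR-141-3p, 22.1 for miR-200b-3p, 6.04 for miR-200a-3p and 0.738 for miR-429. The sum of these markers is therefore mostly miR-200c-3p. The 4 haematopoietic markers summed to at most 18.3 CPM in any library, but miR-122-5p, a liver miRNA, and miR-126-3p, an endothelial one, averaged 19600 and 3090 CPM. The summed epithelial markers were 1970 to 2810 CPM in adherent shRELA and 3290 to 3420 CPM in adherent shNeg, and 3480 to 6850 CPM in spheroid shRELA against 1680 to 2440 CPM in spheroid shNeg. With shRELB they were 7080 to 9020 CPM in adherent cells and 7340 to 15900 CPM in spheroids. The stromal miR-143-3p and miR-145-5p summed to 225 to 256 CPM in adherent shNeg, 22.5 to 45.2 in adherent shRELA and 172 to 192 in adherent shRELB, and in spheroids to 53.3 to 66.7 CPM with shNeg, 12.6 to 23.6 with shRELA and 72.7 to 112 with shRELB. miR-126-3p was 696 to 856 CPM in spheroid shNeg against 6260 to 7360 CPM in adherent shNeg. The part of these markers in the results was not tested. In bulk cultures, fewer cells of a kind and less of the miRNA per cell cannot be told apart.

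The library of spheroid shNeg replicate 1 stood apart. It detected 432 miRNAs, where the other 3 spheroid shNeg libraries detected 813 to 885. It held 1 count of miR-96-5p, where the mean of the other 3 libraries corresponds to 108 counts at its depth, and 0 counts of miR-183-3p, where 39.4 would correspond. For the abundant members it held 3057 counts of miR-183-5p against a corresponding 2380, and 2362 counts of miR-182-5p against 2170. Among the 76 miRNAs at 30 to 100 CPM in the other 3 libraries, 3 had at most 3 counts in replicate 1, and among the 99 miRNAs at 10 to 30 CPM 33 had 0 counts. Results that this library moves are therefore given with and without it.

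The cluster is a group of neighbouring microRNA genes transcribed together, from which the hairpins are cut and each yields a guide strand of about the same length. A microRNA recognises messenger RNAs mainly through its seed, the bases near its 5′ end. The cluster is known from sensory organs, where it is abundant, and is often high in epithelial tumours, where FOXO1 is among its studied targets.

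The 4 mature sequences are printed because their seeds decide which members can share targets. Capitals mark the seed, bases 2 to 8 from the 5′ end.
miR-183-5p: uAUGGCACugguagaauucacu
miR-96-5p: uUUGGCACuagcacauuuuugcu
miR-182-5p: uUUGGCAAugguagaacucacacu
miR-183-3p: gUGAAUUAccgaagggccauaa
The sequences come from RefSeq on GRCh38.p14, in which all 4 members were matched, and each arises from 1 hairpin. The mature sequences lie on the minus strand at chr7:129774967-129774988 for miR-183-5p, chr7:129774928-129774949 for miR-183-3p, chr7:129774739-129774761 for miR-96-5p and chr7:129770447-129770470 for miR-182-5p. The hairpin of MIR183 lies upstream of MIR96 by 135 bases, and MIR96 upstream of MIR182 by 4199 bases, within a stretch of 4632 bases. In the GENCODE annotation all 3 hairpins fall in an intron of the long non-coding RNA gene ENSG00000286380 on the same strand, and none in an exon of it.

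The 3 guide strands from the 5′ arms have closely related seeds that are not the same. Counted from 1 at the 5′ end, the seed of miR-183-5p differs from that of miR-96-5p by A2U, and from that of miR-182-5p by A2U and C8A. The seeds of miR-96-5p and miR-182-5p differ by C8A. Over the whole aligned length without gaps, miR-183-5p and miR-182-5p are identical at 18 of 22 positions, and miR-96-5p is identical to miR-183-5p at 13 of 22 and to miR-182-5p at 12 of 23. Thus miR-183-5p and miR-182-5p are the most alike along the whole strand of these 3, although their seeds differ the most. miR-183-3p, the other arm of the miR-183 hairpin, has an unrelated seed. Among the tested miRNAs with a matched sequence, 795 of 905, only miR-96-5p shared its exact seed with another, miR-1271-5p, which arises from chromosome 5:
miR-1271-5p: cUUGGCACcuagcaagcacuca
Outside the seed these 2 strands differ, with 9 of 22 positions identical in all.

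Levels are given as CPM, the count of a miRNA relative to the library's total after TMM scaling. A read covers a whole mature miRNA, so that no length scaling was applied. The members ranked 38 (miR-183-5p), 44 (miR-182-5p), 135 (miR-96-5p) and 209 (miR-183-3p) of 905 by their mean level, and together took 0.433 to 0.824% of a library's counts. That summed share was 0.47 ± 0.016% in adherent shNeg, 0.676 ± 0.042% in adherent shRELA and 0.496 ± 0.05% in adherent shRELB. In spheroids it was 0.447 ± 0.011% with shNeg, 0.783 ± 0.078% with shRELA and 0.584 ± 0.1% with shRELB (SD, n = 4 each). The mean summed share was highest in the shRELA groups of both cultures. Single libraries overlapped, since spheroid shRELB reached 0.677%, above the lowest of adherent shRELA (0.63%) and of spheroid shRELA (0.666%).

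miR-183-5p, the guide strand of the first hairpin, was measured at 2882, 2397, 2807 and 2829 CPM in adherent shNeg, 4172, 4130, 3404 and 4587 CPM in adherent shRELA and 2737, 2561, 2629 and 2584 CPM in adherent shRELB. In spheroids it was 2242, 1706, 1794 and 1737 CPM with shNeg, 4046, 4647, 4285 and 4662 CPM with shRELA and 2817, 2861, 3464 and 3689 CPM with shRELB. From the highest group mean to the lowest, the order was spheroid shRELA (4410 ± 299 CPM), adherent shRELA (4073 ± 492), spheroid shRELB (3208 ± 436), adherent shNeg (2729 ± 223), adherent shRELB (2628 ± 78.1) and spheroid shNeg (1870 ± 251, or 1746 ± 44.6 with n = 3 without replicate 1). Neighbours in that order overlapped, except that all spheroid shNeg libraries lay below all of adherent shRELB.

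miR-182-5p, the guide strand of the last hairpin, was measured at 2113, 1746, 2145 and 2120 CPM in adherent shNeg, 3726, 3301, 2609 and 3820 CPM in adherent shRELA and 2052, 1786, 2234 and 2011 CPM in adherent shRELB. In spheroids it was 1732, 1363, 1754 and 1653 CPM with shNeg, 2976, 3796, 3658 and 3704 CPM with shRELA and 1609, 1921, 2624 and 2993 CPM with shRELB. Its group means had the same order as those of miR-183-5p, namely 3534 ± 376 CPM in spheroid shRELA, 3364 ± 552 in adherent shRELA, 2287 ± 634 in spheroid shRELB, 2031 ± 190 in adherent shNeg, 2021 ± 184 in adherent shRELB and 1626 ± 180 in spheroid shNeg (1590 ± 203 with n = 3 without replicate 1). Neighbours again overlapped, apart from adherent shRELB and spheroid shNeg, which did not.

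miR-96-5p, the guide strand of the middle hairpin, was measured at 227.8, 301.3, 245.3 and 222.2 CPM in adherent shNeg, 434.2, 356.8, 249.8 and 527.7 CPM in adherent shRELA and 158.9, 179.8, 211.2 and 170.8 CPM in adherent shRELB. In spheroids it was 0.7334, 72.54, 82.59 and 82.81 CPM with shNeg, 162.1, 186.4, 163.4 and 164.9 CPM with shRELA and 112.8, 75.14, 137.6 and 59.36 CPM with shRELB. Here the order followed the culture, with adherent shRELA (392.1 ± 118 CPM), adherent shNeg (249.2 ± 36.1) and adherent shRELB (180.2 ± 22.4) above spheroid shRELA (169.2 ± 11.5), spheroid shRELB (96.22 ± 35.5) and spheroid shNeg (59.67 ± 39.6, or 79.31 ± 5.87 with n = 3 without replicate 1). Adherent shRELB and spheroid shRELA overlapped, as did adherent shRELA with adherent shNeg and spheroid shRELB with spheroid shNeg.

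miR-183-3p, the scarcer arm of the first hairpin, was measured at 70.63, 79.73, 62.22 and 66.51 CPM in adherent shNeg, 93.31, 109.5, 78.84 and 106.7 CPM in adherent shRELA and 64.41, 71.09, 54.46 and 46.32 CPM in adherent shRELB. In spheroids it was 0, 30.54, 28.73 and 27.37 CPM with shNeg, 97.93, 86.64, 71.61 and 67.63 CPM with shRELA and 32.15, 37.24, 27.43 and 36.13 CPM with shRELB. The count of 0 in spheroid shNeg replicate 1 allows up to 2.2 CPM, from 3 counts and counting error alone. The order was adherent shRELA (97.09 ± 14.1 CPM), spheroid shRELA (80.95 ± 14), adherent shNeg (69.77 ± 7.47), adherent shRELB (59.07 ± 10.9), spheroid shRELB (33.24 ± 4.45) and spheroid shNeg (21.66 ± 14.5, or 28.88 ± 1.59 with n = 3 without replicate 1). Only adherent shRELB and spheroid shRELB did not overlap among neighbours.

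**Figure D1:**
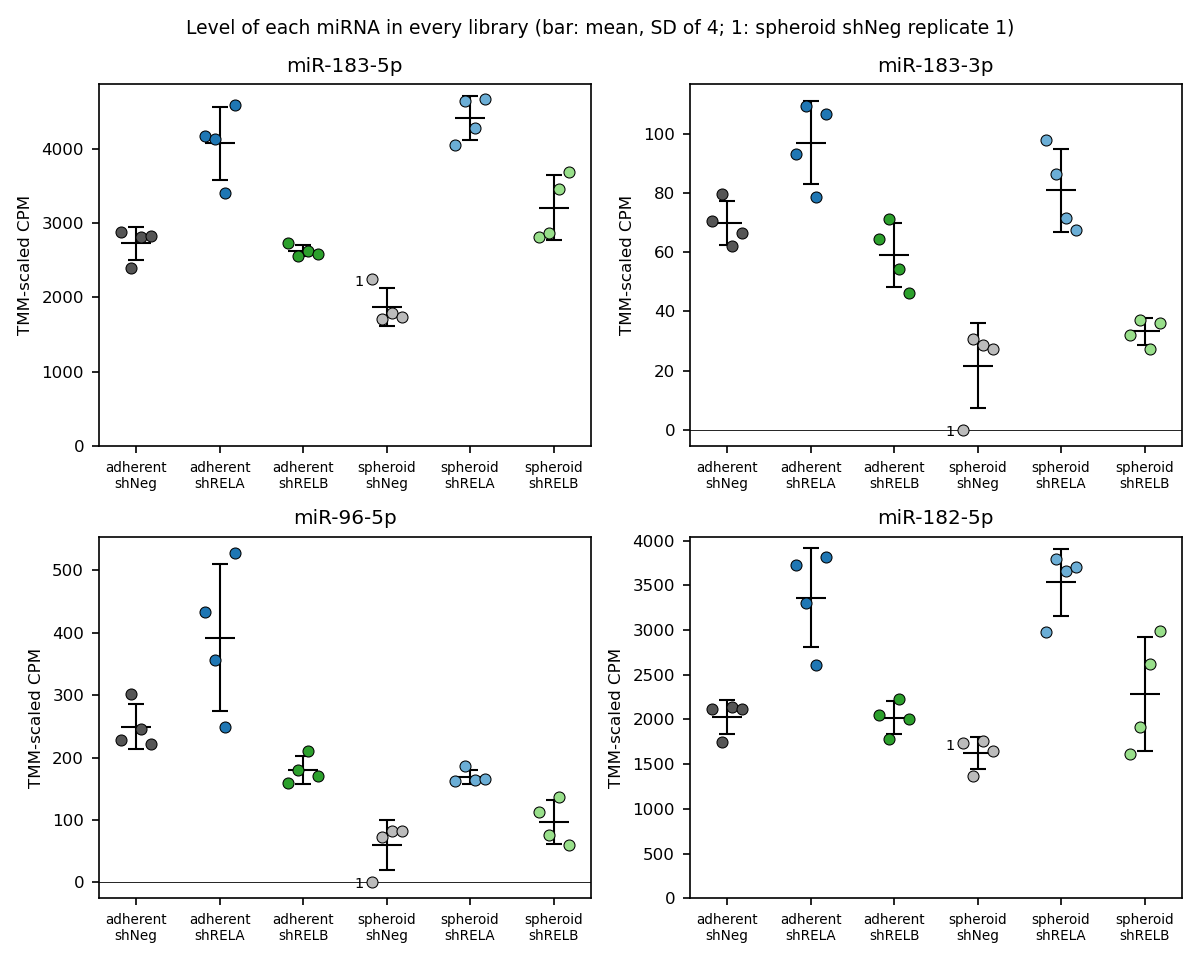
Level in TMM-scaled CPM (y axis, linear, a scale for each miRNA) of the 4 miRNAs in each of 24 libraries (points) by group (x axis), with the mean and SD of 4 libraries as bars and spheroid shNeg replicate 1 marked 1. The shRELA groups have the highest mean of each culture for every member, and spheroid shNeg replicate 1 is at 0 CPM for miR-183-3p and 0.7334 CPM for miR-96-5p but the highest of its group for miR-183-5p.

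Differential expression was tested over all 905 miRNAs with edgeR's quasi-likelihood test. A miRNA passed at a Benjamini-Hochberg adjusted p (FDR) below 0.01, and was called differentially expressed if it also changed more than 2-fold. Fold changes are log2 values with a standard error (SE). The SE was derived from the test, as the absolute log2 fold change over the square root of the F statistic. The 95% intervals use this SE.

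RELA knockdown in spheroids raised all 4 members, by 1.24 for miR-183-5p (SE 0.152, FDR 1.2e-07), 1.89 for miR-183-3p (SE 0.389, FDR 0.000318), 1.5 for miR-96-5p (SE 0.419, FDR 0.00663) and 1.12 for miR-182-5p (SE 0.178, FDR 1.03e-05). As folds these were 2.36, 3.70, 2.82 and 2.17. Every shRELA library lay above every shNeg library for each member. All 4 were called, whereas 15.1% of all tested miRNAs were called, 17.8% passed in either direction, 9.39% passed as higher, and 22.5% had groups that did not overlap. The median log2 fold change of the members was 1.37, or 1.24 without spheroid shNeg replicate 1, and that of all tested miRNAs 0.0938.

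All 4 members were, without spheroid shNeg replicate 1, still called, at 1.34 for miR-183-5p (FDR 1.41e-09), 1.49 for miR-183-3p (FDR 9.76e-07), 1.09 for miR-96-5p (FDR 0.000198) and 1.15 for miR-182-5p (FDR 1.41e-06), beside 17.2% of miRNAs passing. With this library in the fit, the call of miR-96-5p was the one most easily lost. Its FDR was 0.0126 without spheroid shNeg replicate 2 and 0.0125 to 0.0176 without any 1 of the 4 spheroid shRELA libraries, and it also missed the threshold with library totals in place of TMM, with DESeq2 and with only the groups compared.

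The change in spheroids also went with base composition. GC content, the share of G and C in the mature sequence, was 39.1% for miR-96-5p, 40.9% for miR-183-5p, 41.7% for miR-182-5p and 45.5% for miR-183-3p, all on the low side. It could be taken for 301 of the 335 miRNAs that averaged 10 CPM or more. In spheroid shRELA against spheroid shNeg the median log2 fold change was 0.864 for the 39 miRNAs below 40% GC, 0.752 for the 87 at 40 to 50%, 0.0713 for the 108 at 50 to 60% and -0.346 for the 67 at 60% or more. Against the other miRNAs of its own GC class, miR-96-5p exceeded 29 of 38, miR-182-5p 64 of 84, miR-183-5p 71 of 84 and miR-183-3p 82 of 84. Without spheroid shNeg replicate 1 these were 25 of 38, 74 of 84, 78 of 84 and 81 of 84. The part of base composition in the results was not tested.

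RELA knockdown in adherent cells gave smaller differences. miR-182-5p rose by 0.73 (SE 0.177, FDR 0.00614), a fold of 1.66, and miR-183-5p had a log2 fold change of 0.58 (SE 0.15, FDR 0.0101) that just missed the threshold. The values of miR-96-5p and miR-183-3p were 0.65 (SE 0.395, FDR 0.411) and 0.48 (SE 0.349, FDR 0.515). With 1 of 4 members passing, 4.75% of all miRNAs passed, 1.55% as higher and 3.2% as lower, and 3.76% were called. The groups did not overlap for miR-183-5p and miR-182-5p, 2 of 4 members, against 20.7% of all miRNAs.

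The adherent result moved with the spread estimated from all groups. When the fit left out spheroid shNeg replicate 1, a library of neither group here, the fold changes stayed at 0.58 for miR-183-5p, 0.73 for miR-182-5p, 0.66 for miR-96-5p and 0.48 for miR-183-3p, but the SE of miR-96-5p was 0.195 and that of miR-183-3p was 0.18. miR-183-5p (FDR 0.00154) and miR-182-5p (FDR 0.000755) then passed, miR-96-5p had an FDR of 0.016 and miR-183-3p of 0.0702, beside 9.06% of all miRNAs passing. With all 24 libraries, the pass of miR-182-5p was lost on leaving out replicate 1, 2, 3 or 4 of adherent shNeg, or replicate 1, 2 or 4 of adherent shRELA. In this comparison 78 of the 84 other miRNAs at 40 to 50% GC lay below miR-183-5p and 81 of 84 below miR-182-5p.

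RELB knockdown in spheroids, which was set against the same shNeg libraries, raised miR-183-5p alone past the threshold, by 0.78 (SE 0.15, FDR 0.000156) or 1.72-fold. miR-182-5p had 0.49 (SE 0.177, FDR 0.0361), miR-96-5p 0.68 (SE 0.416, FDR 0.231) and miR-183-3p 0.61 (SE 0.39, FDR 0.253). Among all miRNAs 16.7% passed, 9.5% as higher and 7.18% as lower, so that 1 of 4 members is near the background. The same member was the only 1 whose groups did not overlap, against 17.3% of all miRNAs. The values without spheroid shNeg replicate 1 were 0.88 for miR-183-5p (FDR 6.55e-06), 0.52 for miR-182-5p (FDR 0.0209), 0.27 for miR-96-5p (FDR 0.427) and 0.21 for miR-183-3p (FDR 0.557), beside 17.2% of miRNAs passing. The miR-96-5p and miR-183-3p values thus fell to less than 1.5 times their SE without that library. The median of other miRNAs in the class of 40 to 50% GC was 0.65, and 46 of 84 lay below miR-183-5p.

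RELB knockdown in adherent cells passed for none of the 4. The log2 fold changes were -0.05 for miR-183-5p (95% interval -0.358 to 0.249), -0.01 for miR-182-5p (-0.365 to 0.35), -0.24 for miR-183-3p (-0.952 to 0.473) and -0.47 for miR-96-5p (-1.27 to 0.336), with FDR of 0.523 or more by edgeR. At an unadjusted p under 0.05 the count was also 0, and it was 0 by DESeq2 and by limma, while 7.85% of all miRNAs passed, 4.2% as higher and 3.65% as lower, and 7.07% were called. All adherent shRELB libraries were below all shNeg libraries for miR-96-5p, 1 of 4 members, as was the case in either direction for 33.1% of all miRNAs. The intervals of the 2 scarcer members are the wider ones.

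The knockdowns were then compared directly. In adherent cells shRELB was below shRELA for miR-183-5p by -0.63 (SE 0.15, FDR 0.00214) and for miR-182-5p by -0.74 (SE 0.177, FDR 0.00241), which both passed. miR-96-5p had -1.12 (SE 0.398, FDR 0.0362) and miR-183-3p -0.72 (SE 0.351, FDR 0.151). Of all miRNAs 13.5% passed, 5.64% as lower, and 10.8% were called. The groups did not overlap for any of the 4 members, against 31.3% of all miRNAs.

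In spheroids the difference between shRELB and shRELA was -0.46 for miR-183-5p (SE 0.15, FDR 0.031), -1.28 for miR-183-3p (SE 0.367, FDR 0.014), -0.82 for miR-96-5p (SE 0.405, FDR 0.176) and -0.63 for miR-182-5p (SE 0.177, FDR 0.0123). None of the 4 passed by edgeR, although 3 had an unadjusted p under 0.05, and DESeq2 passed 3 and limma 1. Of all miRNAs 8.4% passed, 4.64% as higher and 3.76% as lower, and 6.63% were called. Groups did not overlap for 3 of 4 members, all but miR-182-5p, against 20.4% of all miRNAs. Neither of these 2 groups holds spheroid shNeg replicate 1, but without it in the fit all 4 members passed in both cultures. In adherent cells the values were then -0.63 for miR-183-5p (FDR 0.000241), -0.74 for miR-182-5p (FDR 0.000298), -0.72 for miR-183-3p (FDR 0.00156) and -1.12 for miR-96-5p (FDR 1.08e-05), beside 24.3% of miRNAs passing. In spheroids they were -0.46 for miR-183-5p (FDR 0.00912), -0.63 for miR-182-5p (FDR 0.00254), -1.27 for miR-183-3p (FDR 1.27e-06) and -0.82 for miR-96-5p (FDR 0.00176), beside 15.9%. Base composition moved less with this comparison in spheroids, where the medians of the 4 GC classes ran from -0.0598 to 0.122. In adherent cells they were -0.723 below 40% GC, -0.322 at 40 to 50%, 0.113 at 50 to 60% and 0.0947 at 60% or more. There 9 of 38 others of its class lay below miR-96-5p. Of 84 others, 23 lay below miR-183-5p, 17 below miR-182-5p and 18 below miR-183-3p.

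**Figure D2:**
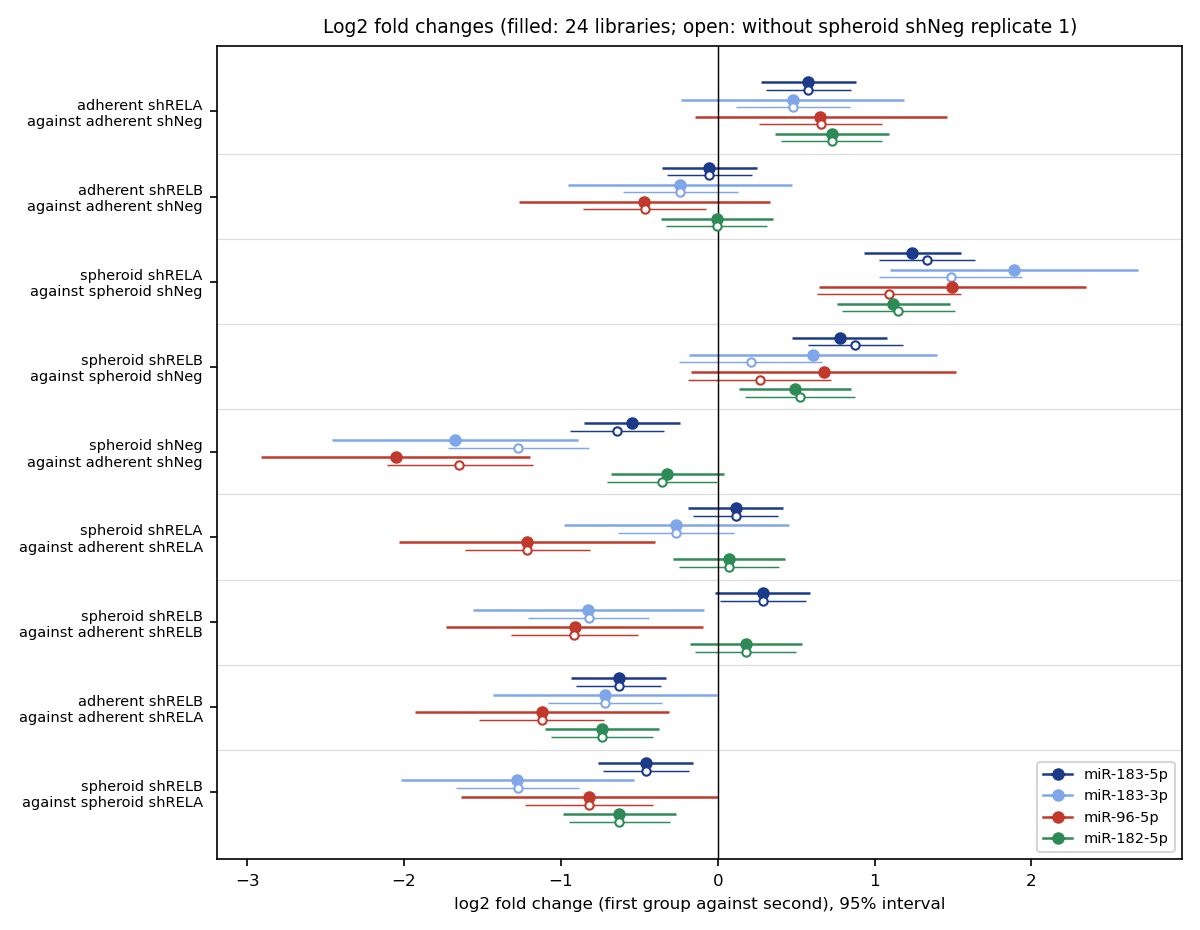
Log2 fold change (x axis) with its 95% interval for the 4 miRNAs (colours) in each of the 9 comparisons of 2 groups (y axis), from all 24 libraries (filled) and without spheroid shNeg replicate 1 (open). All 4 members lie above 0 for shRELA against shNeg in spheroids, from 1.12 to 1.89, and the open intervals of miR-96-5p and miR-183-3p are narrower than the filled ones.

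Growth as spheroids with shNeg gave lower levels of 3 of the 4 members than adherent growth. miR-96-5p fell by 2.05 on the log2 scale (SE 0.422, FDR 9.59e-05), miR-183-3p fell by 1.67 (SE 0.384, FDR 0.00038) and miR-183-5p fell by 0.55 (SE 0.15, FDR 0.00234), while miR-182-5p had -0.32 (SE 0.176, FDR 0.117). miR-96-5p and miR-183-3p were called, at 4.15 and 3.19 times lower. This comparison had the most miRNAs passing of the 11, with 45% of miRNAs passing, 22.4% as lower, and 42.2% called. The 3 passing members had groups that did not overlap, against 47.5% of all miRNAs. Without replicate 1 of spheroid shNeg the values were -1.65 for miR-96-5p (FDR 3.41e-08), -1.27 for miR-183-3p (FDR 3.38e-06), -0.64 for miR-183-5p (FDR 0.000252) and -0.35 for miR-182-5p (FDR 0.0807), beside 44.8% of miRNAs passing.

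Scaling and base composition moved with this comparison. The median log2 fold change of all tested miRNAs was -0.257, and that of the 335 miRNAs averaging 10 CPM or more was -0.545, which equals the value of miR-183-5p. With library totals in place of TMM the median of all miRNAs was 0.169, miR-183-5p was at -0.12 (FDR 0.47) and no longer passed, and miR-182-5p turned to 0.11. Relative to the median of all miRNAs, miR-96-5p was at -1.8 with TMM and -1.75 with library totals, miR-183-3p at -1.42 and -1.38, miR-183-5p at -0.288 and -0.285, and miR-182-5p at -0.0641 and -0.0566. The medians by GC class ran from -1.8 below 40% through -1.38 at 40 to 50% and -0.121 at 50 to 60% to 1.31 at 60% or more. The value of miR-96-5p lay 0.27 below the median of the other miRNAs of its class, and without replicate 1 lay 0.072 below it. That of miR-183-3p lay 0.258 below the median of its class, with 33 of 84 others lower. Without replicate 1 it lay 0.0322 below, with 41 of 84 lower. The 2 abundant guides were higher than most of theirs, with 67 of 84 miRNAs below miR-183-5p and 68 of 84 below miR-182-5p, and 59 and 67 of 84 without replicate 1.

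**Figure D3:**
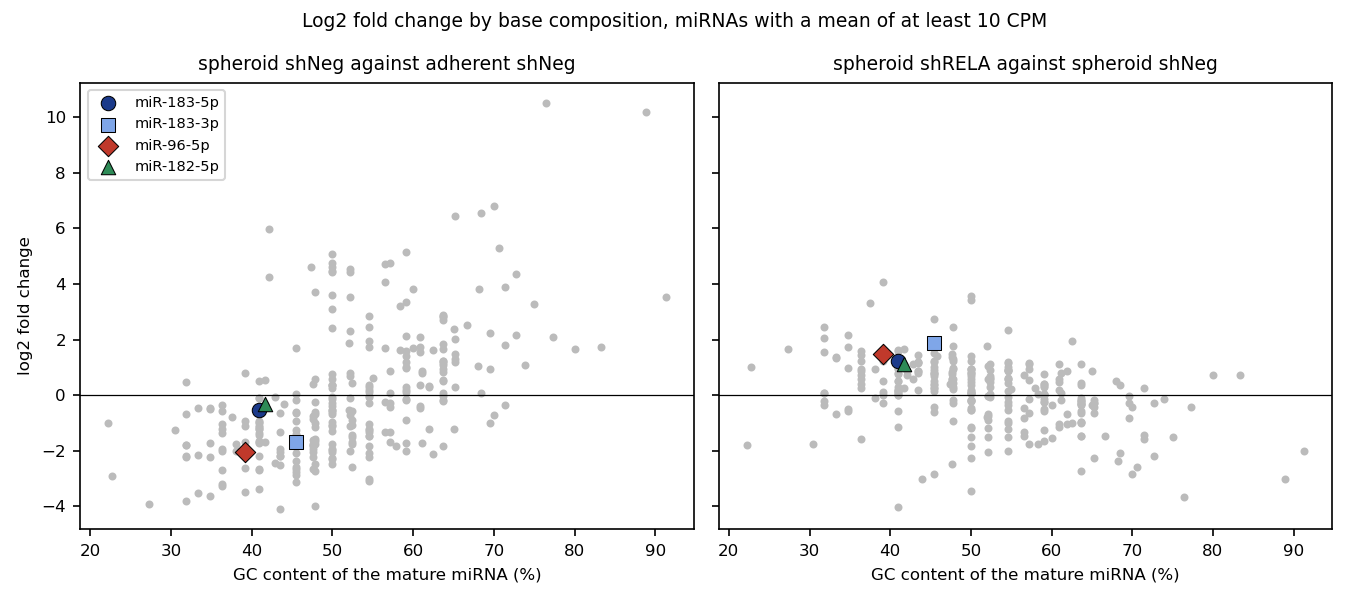
Log2 fold change (y axis) against the GC content of the mature miRNA in percent (x axis) for the 301 miRNAs averaging 10 CPM or more with a matched sequence (grey), with the 4 members marked, for spheroid shNeg against adherent shNeg (left) and spheroid shRELA against spheroid shNeg (right). The cloud rises with GC content on the left and falls on the right, and the members lie between 39.1 and 45.5% GC.

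Under RELA knockdown, none of the 4 members passed between spheroid and adherent cells by edgeR with all libraries. miR-183-5p had 0.11 (SE 0.149, FDR 0.547), miR-182-5p 0.07 (SE 0.176, FDR 0.761) and miR-183-3p -0.26 (SE 0.352, FDR 0.556), whereas miR-96-5p had -1.21 (SE 0.401, FDR 0.0119) and was the 1 member whose groups did not overlap. In all, 38.1% of miRNAs passed and 46.3% did not overlap. In the fit without spheroid shNeg replicate 1, miR-96-5p was at the same value of -1.21 with an SE of 0.199 and was called (FDR 1.33e-06), 2.32 times lower, while the other 3 did not pass, beside 44.6% of miRNAs. In either fit the other miRNAs below 40% GC had a median of -1.73, and 24 of 38 lay below miR-96-5p. At an unadjusted p under 0.05 miR-96-5p was also the only member, and DESeq2 and limma passed 0.

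Under RELB knockdown the same split was seen in the direction of the values. miR-183-5p had 0.29 (SE 0.149, FDR 0.119) and miR-182-5p 0.18 (SE 0.176, FDR 0.423), while miR-183-3p had -0.82 (SE 0.362, FDR 0.0641) and miR-96-5p -0.91 (SE 0.403, FDR 0.065). None of the 4 passed by edgeR, DESeq2 or limma with all libraries, 2 had an unadjusted p under 0.05, and 29.2% of all miRNAs passed, 15.2% as higher. Groups did not overlap for 3 of 4 members, with miR-183-5p higher in spheroids and miR-183-3p and miR-96-5p lower, against 41.5% of all miRNAs. Without spheroid shNeg replicate 1 miR-183-3p at -0.82 (FDR 0.000378) and miR-96-5p at -0.92 (FDR 0.000182) passed, beside 39% of all miRNAs. In this pair of groups the medians at below 40% and at 40 to 50% GC were -0.911 and -0.623, and miR-96-5p equalled its class, with 19 of 38 others lower.

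Whether a knockdown acted differently in the 2 cultures was tested as the difference of the log2 fold changes. For RELB the difference, spheroid minus adherent, passed for miR-183-5p at 0.83 (SE 0.211, FDR 0.00533), with 0.85 for miR-183-3p (FDR 0.292), 1.14 for miR-96-5p (FDR 0.186) and 0.50 for miR-182-5p (FDR 0.182). Of all miRNAs 9.06% passed, 5.08% as higher. The other miRNAs at 40 to 50% GC had a median difference of 0.761, and 46 of 84 lay below miR-183-5p, or 57 of 84 without spheroid shNeg replicate 1. With library totals the value of miR-183-5p was 0.44 (FDR 0.107), and its pass was lost in 14 of 28 alternatives. For RELA none of the 4 passed by edgeR, at 0.66 for miR-183-5p (FDR 0.0331), 1.41 for miR-183-3p (FDR 0.0671), 0.84 for miR-96-5p (FDR 0.353) and 0.39 for miR-182-5p (FDR 0.319), although the first 2 had an unadjusted p under 0.05, and 7.73% of all miRNAs passed, 4.42% as higher and 3.31% as lower, with 7.62% called. Without spheroid shNeg replicate 1 the RELA difference passed for miR-183-5p at 0.76 (FDR 0.00541), beside 9.83% of all miRNAs, and that of miR-183-3p was 1.01 with an FDR of 0.01. For the RELA difference, 36 of the 84 others at 40 to 50% GC lay below miR-183-5p, or 57 of 84 without that library. Below miR-183-3p lay 74 of 84, or 67 of 84 without it. The RELB difference for miR-183-5p without that library was 0.93 (FDR 0.000551), beside 10.6%. Thus for miR-96-5p and miR-182-5p no difference of the knockdown change between cultures passed in either fit.

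Ratios of counts within a library do not depend on scaling, and show whether members moved together. A shift that goes with base composition stays in such ratios, and its part was not tested. The ratio of miR-182-5p to miR-183-5p varied the least of the 4 ratios, with geometric means of 0.744 in adherent shNeg, 0.822 in adherent shRELA, 0.767 in adherent shRELB, 0.871 in spheroid shNeg, 0.799 in spheroid shRELA and 0.697 in spheroid shRELB. Its lowest library was at 0.571, in spheroid shRELB, and its highest at 0.978, in spheroid shNeg. The shNeg spheroids had a ratio 1.17 times that of adherent shNeg, or 1.22 times without replicate 1, with no overlap (exact permutation p = 0.0286 each).

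The ratio of miR-96-5p to miR-183-5p followed the culture. Its geometric mean was 0.0909 in adherent shNeg, 0.0933 in adherent shRELA and 0.0682 in adherent shRELB, against 0.0384 in spheroid shRELA and 0.0287 in spheroid shRELB. In spheroid shNeg it was 0.0147, which rests on replicate 1 at 0.000491, and 0.0455 over the other 3 libraries. Between cultures the ratio was 2.43 times lower in spheroids with shRELA, 2.38 times lower with shRELB and 6.2 times lower with shNeg, or 2 times lower with shNeg without replicate 1, and no library overlapped in any of these comparisons (exact permutation p = 0.0286 each). Between miR-182-5p and miR-96-5p the ratio was 2.36 times higher in spheroids with shRELA, 2.16 times higher with shRELB and 7.25 times higher with shNeg, or 2.43 times with shNeg without replicate 1, also with no overlap (exact permutation p = 0.0286 each). Between cultures, other miRNAs below 40% GC had median log2 fold changes of -1.78 with shNeg, -1.73 with shRELA and -0.944 with shRELB. Those at 40 to 50% GC, the class of miR-183-5p and miR-182-5p, had -1.42, -0.761 and -0.626.

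The ratio between the arms of the miR-183 hairpin also varied between groups. The ratio of miR-183-3p to miR-183-5p had a geometric mean of 0.0256 in adherent shNeg, 0.0238 in adherent shRELA and 0.0222 in adherent shRELB, and of 0.0182 in spheroid shRELA and 0.0104 in spheroid shRELB. In spheroid shNeg it was 0.00526, or 0.0167 without replicate 1. With shRELB it was 2.13 times lower in spheroids than in adherent cells, and in spheroids it was 1.75 times lower with shRELB than with shRELA, both without overlap (exact permutation p = 0.0286 each). Between spheroid and adherent shRELA the groups overlapped, at 1.3 times lower in spheroids (exact permutation p = 0.114). Between spheroid and adherent shNeg the ratio was 4.86 times lower, or 1.53 times lower without replicate 1, with no overlap (exact permutation p = 0.0286 each). Between spheroid shRELA and spheroid shNeg it was 3.47 times higher (exact permutation p = 0.314), or 1.09 times higher without replicate 1 (exact permutation p = 0.629), with overlap in both. Spheroid shRELB was 1.98 times higher than spheroid shNeg (exact permutation p = 1), or 1.6 times lower without replicate 1 (exact permutation p = 0.0571).

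In all 36 comparisons of ratios were tested, as 4 ratios in 9 pairs of groups, with two-sided exact permutation tests of 4 against 4 libraries, for which 0.0286 is the smallest possible p. It was reached in 12 of them, the adjusted p of these was 0.0858, and none of the 36 was below 0.05 after adjustment. With 4 libraries a group, an adjusted p below 0.05 needs many more than 12 of the 36 at the smallest p. The adjusted values therefore cannot show that the ratios did not differ. Leaving out spheroid shNeg replicate 1, the smallest adjusted p was 0.0792. The ratio of miR-96-5p to miR-183-5p in spheroid shRELA against spheroid shNeg turned from 2.62 times higher to 1.19 times lower without replicate 1, so that for these 2 members the sign of the difference in response to RELA knockdown rested on that library.

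**Figure D4:**
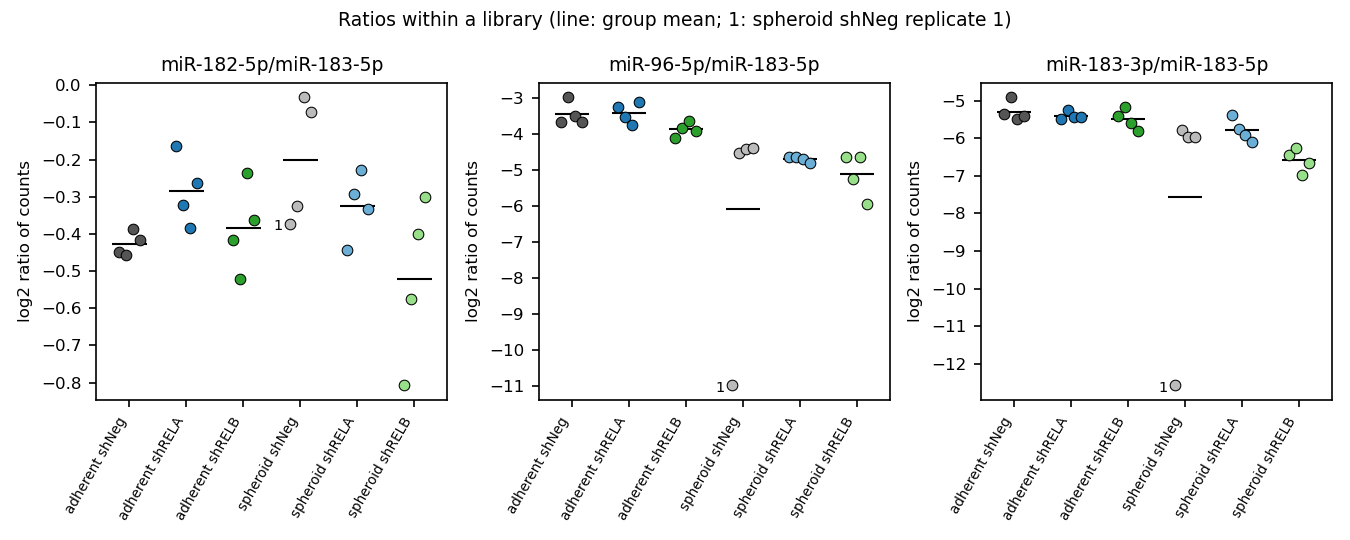
Log2 ratio of counts within each library (y axis, a scale for each ratio) by group (x axis) for miR-182-5p, miR-96-5p and miR-183-3p to miR-183-5p, with points for libraries, a line for the group mean and spheroid shNeg replicate 1 marked 1. The ratio of miR-96-5p to miR-183-5p is lower in every spheroid library than in every adherent library, while that of miR-182-5p to miR-183-5p spans only 0.571 to 0.978 on the linear scale.

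The likeness of patterns was measured as the root mean square difference between log2(CPM + 1) values centred on their mean over the libraries, among the 335 miRNAs that averaged 10 CPM or more. By this measure miR-182-5p was the most alike to miR-183-5p of 334 miRNAs, and the reverse, at 0.156 over 24 libraries and 0.16 over the 23 without spheroid shNeg replicate 1. The median over the 334 was 0.947 for miR-183-5p. let-7a-5p (0.216) and miR-191-5p (0.242) came next for miR-183-5p, and the same 2 for miR-182-5p at 0.285 and 0.292. Both lists had the same names without replicate 1.

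The other members were less alike to this pair. miR-96-5p stood at rank 280 of 334 for miR-183-5p at 1.41, and at rank 109 at 0.703 without replicate 1. The miRNAs most alike to miR-96-5p were miR-18a-5p (0.372), miR-183-3p (0.462) and miR-30b-5p (0.536), and those most alike to miR-183-3p were miR-96-5p (0.462), miR-4326 (0.517) and miR-501-5p (0.52). These lists rested on replicate 1. Without it they were miR-148b-5p (0.298), miR-500b-5p (0.309) and miR-29c-5p (0.332) for miR-96-5p, and let-7d-5p (0.262), miR-15b-5p (0.337) and miR-362-5p (0.343) for miR-183-3p. miR-183-5p, the other arm of the same hairpin, was then at rank 28 of 334 for miR-183-3p at 0.483. These likenesses are descriptions over libraries that share groups and depth.

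The remaining arms of the cluster were scarce. miR-96-3p never exceeded 5 counts and was not tested. miR-182-3p was at 8.953 to 13.07 CPM in adherent shNeg, 6.713 to 20.52 CPM in spheroid shRELA and 0 to 4.582 CPM in spheroid shNeg. It rose with RELA knockdown in spheroids by 2.37 (SE 0.497, FDR 0.000411 by edgeR) and fell by 2.16 in spheroid against adherent shNeg (SE 0.488, FDR 0.000317), from 0 to 6 counts a library in spheroid shNeg. Without spheroid shNeg replicate 1 these values of miR-182-3p were 2.0 (FDR 0.000604) and -1.78 (FDR 0.000689). miR-1271-5p, with the seed of miR-96-5p, fell by 2.24 in spheroid against adherent shNeg (SE 0.405, FDR 1.68e-05) and by 1.89 in spheroid against adherent shRELA (SE 0.369, FDR 8.13e-05), and did not pass with either knockdown in spheroids (FDR 0.101 for RELA and 0.267 for RELB). Without that library its culture values were -1.85 (FDR 7.21e-07) and -1.89 (FDR 7.87e-09).

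A list of 7 other epithelial miRNAs, the miR-200 family with miR-141-3p, miR-203a-3p and miR-205-5p, was read in the same comparisons. In spheroid shRELA against spheroid shNeg 1 of 7 rose and 1 of 7 fell, beside 9.39% and 8.4% of all miRNAs. The median log2 fold change of the list was -0.259, which was 0.317 without spheroid shNeg replicate 1. In adherent shRELA against shNeg 0 of 7 rose and 1 of 7 fell, beside 1.55% and 3.2%, with a median of -1.35. In spheroid shRELB against shNeg 3 of 7 rose and 1 of 7 fell, beside 9.5% and 7.18%. The median was 1.61, or 1.43 without that library. In adherent cells shRELB exceeded shRELA for 4 of 7, beside 7.85% of all miRNAs. The median was 1.68, where the median of the cluster members was -0.726. Between spheroid and adherent shNeg 3 of 7 fell and 0 rose, beside 22.4% and 22.5% of all miRNAs. The counts of rises and falls were the same without that library, except that 3 of 7 fell in adherent shRELA against shNeg. In every library miR-429 had at most 9 counts and miR-203a-3p at most 22, so the list medians rest partly on values near the floor.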

How the data were processed

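Small RNA libraries were made with the QIAseq miRNA kit from total RNA of OV90 cells. Per the labels, the submitters' processing notes name cutadapt, edgeR and GRCh38. The authors deposited 1 table of estimated counts per mature miRNA for the 24 libraries; its title calls it CPM, but library totals differ and only 3.04% of the values above 0 are not whole (none in the members), so its values were taken for expected counts and rounded to whole numbers. Groups and replicate numbers were taken from the sample titles. The members and lists were chosen with earlier results of these data known.

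Those reaching 1 CPM in 4 or more libraries (905 of 2656) were tested with edgeR 4.0.16 in R 4.3.3 (TMM, quasi-likelihood F test, 6 groups fitted together without covariates, 9 comparisons of 2 groups and 2 differences of differences). Alternatives used limma 3.58.1, DESeq2 1.42.0, other scalings, filters and samples. Intervals and floors cover counting or model error only. Ratios used counts + 0.5. Named miRNAs were the 4 members, the other arms of their hairpins, miR-1271-5p, 7 epithelial miRNAs given as counts, and for each member the 3 most alike. The fits were tested on simulated data.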

Additional observations from a re-analysis of the deposited data

Results flagged for a closer look

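In groups of 4 libraries, 10 of 48 sets of values had an extreme library whose gap to its neighbour exceeded Dixon's 95% critical value as a share of the range, of which chance gives about 1 in 20. Spheroid shNeg replicate 1 accounted for 6 of them, with 0 CPM for miR-183-3p, 0.7334 CPM for miR-96-5p and 2242 CPM for miR-183-5p, and with log2 ratios of 10.6 for miR-182-5p to miR-96-5p, -12.6 for miR-183-3p to miR-183-5p and -11 for miR-96-5p to miR-183-5p. Adherent shNeg replicate 2 was low for miR-182-5p (1746 CPM) and miR-183-5p (2397 CPM). Spheroid shRELA replicate 1 was low for miR-182-5p (2976 CPM) and replicate 2 high for miR-96-5p (186.4 CPM).

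The change of miR-183-5p with RELB knockdown differed between spheroid and adherent cells by 0.833 on the log2 scale (SE 0.211, FDR 0.00533 by edgeR's test of the difference). The pass was lost in 14 of 28 alternatives, and 46 of the 84 other miRNAs at 40 to 50% GC had a lower value (median 0.761). The cause was not tested.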

How the results depend on the processing

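With all libraries, 1 member passed for adherent shRELA against shNeg, 0 for adherent shRELB, 4 for spheroid shRELA, 1 for spheroid shRELB, 3, 0 and 0 for spheroid against adherent cells with shNeg, shRELA and shRELB, 2 and 0 for shRELB against shRELA in adherent and spheroid cells, and 0 and 1 for the RELA and RELB differences between cultures. Leaving out 1 library of the groups compared gave, in that order, 0 to 2, 0, 3 to 4, 1 to 2, 3, 0 to 1, 0, 0 to 2, 0 to 2, 0 to 1 and 0 to 1. Fitting only the groups compared gave 3, 1, 2, 0, 1, 1, 2, 4 and 3 for the 9 comparisons of 2 groups. Leaving spheroid shNeg replicate 1 out of every fit gave 2 for adherent shRELA against shNeg, 1 and 2 for culture under shRELA and shRELB, and 4 in both comparisons of shRELB with shRELA; limma without it gave the same and 2 for the RELA difference. The alternatives that also dropped this library under limma or library totals were chosen after seeing the data. The count for adherent shRELA against shNeg was 2 by DESeq2, limma, the likelihood ratio test, median-ratio factors and a mean of at least 10 CPM, and 0 with library totals or no filter. shRELB against shRELA in spheroids gave 3 by DESeq2, 2 by the likelihood ratio test and the 10 CPM filter, 1 by limma, median-ratio factors and no filter, and 3 at an FDR below 0.05. That threshold also gave 1 for the RELA difference, 2 for adherent shRELA, 1 for culture under shRELA and 2 for spheroid shRELB. The RELB difference was 0 with library totals, median-ratio factors or the 10 CPM filter. Library totals gave 0 for adherent shRELB against shRELA, and without spheroid shNeg replicate 1 gave 0 for the RELB difference, 2 for adherent shRELA, 1 and 2 for culture under shRELA and shRELB, and 3 for shRELB against shRELA in spheroids. Culture under shRELA gave 1 by the likelihood ratio test, median-ratio factors and no filter, and under shRELB 1 with the 10 CPM filter and 2 with no filter, which also gave 1 for the RELA difference. The causes were not tested.

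None of the fold changes that changed sign passed. For adherent shRELB against shNeg, miR-183-5p was 0.026 with the 10 CPM filter and 0.076 with library totals, with or without spheroid shNeg replicate 1, and miR-182-5p was 0.078 and 0.13, and -0.073 to 0.047 on leaving out 1 library. For spheroid against adherent shNeg, miR-182-5p was 0.086 with the 10 CPM filter, 0.11 with library totals and 0.13 without replicate 1 as well. For culture under shRELA, miR-183-5p was -0.048 with no filter and -0.022 with only the groups compared, and miR-182-5p was -0.090 and -0.058, -0.014 with median-ratio factors or DESeq2, and -0.033 to 0.14 on leaving out 1 library. Under shRELB, miR-182-5p was -0.0087 with no filter and -0.025 to 0.31 on leaving out 1 library. With library totals and without replicate 1, spheroid shRELB against shNeg was -0.11 for miR-183-3p and -0.044 for miR-96-5p. Log2 ratios on leaving out 1 library ran as follows. In spheroid shRELA against shNeg, miR-96-5p to miR-183-5p ran from -0.25 to 1.96 and miR-182-5p to miR-96-5p from -2.07 to 0.064. In spheroid shRELB against shNeg, these ran from -0.67 to 1.54 and from -1.84 to 0.29, and miR-183-3p to miR-183-5p from -0.68 to 1.58, with -0.67 at a pseudocount of 0. In these 5 cases the turn came from leaving out spheroid shNeg replicate 1. In adherent shRELA against shNeg, miR-96-5p to miR-183-5p ran from -0.062 to 0.19, miR-182-5p to miR-96-5p from -0.061 to 0.20 and miR-183-3p to miR-183-5p from -0.17 to 0.024. miR-182-5p to miR-183-5p ran from -0.0054 to 0.090 in adherent shRELB against shNeg, miR-183-3p to miR-183-5p from -0.21 to 0.0041 in adherent shRELB against shRELA, and miR-182-5p to miR-96-5p from -0.13 to 0.48 in spheroid shRELB against shRELA.

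Replicate numbers showed no clear pairing of the libraries. The deviations of same-numbered libraries correlated at -0.524 to 0.36, and only 8 of 36 pairs were above 0.1. With 4 libraries a group, these correlations cannot exclude pairing. With the replicate block the members passing were 1, 0, 4, 1, 3, 0, 0, 2, 0, 0 and 1, as without it. Counts of all miRNAs called moved by over 1.5 times with only the groups compared (57, 124, 70, 50 and 163 against 34, 64, 137, 121 and 98 for the first 4 comparisons and shRELB against shRELA in adherent cells, and 43 against 69 for the RELA difference), at an FDR below 0.05 (153 against 98, 107 against 60, 109 against 69 and 129 against 77), with the 10 CPM filter (202, 158 and 132 against 382, 295 and 226 between cultures, fewer being tested) and, for shRELB against shRELA in spheroids (60), by the likelihood ratio test (97) and without spheroid shNeg replicate 1 (97, 109 by limma, 105 by library totals); library totals without it gave 100 against 64 for adherent shRELB. Depth limits miR-183-3p and miR-96-5p most, at 39 to 56 and 95 to 161 counts in the other 3 spheroid shNeg libraries.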
